A study of Mus musculus with 31 samples.

Results

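The genes described here encode the nuclear-encoded subunits of the mitochondrial respiratory chain and of ATP synthase. They were chosen by symbol alone, as every gene whose name begins with Ndufa, Ndufb, Ndufc, Ndufs or Ndufv and a digit, with Uqcr, with Cox4 to Cox8 or with Atp5, together with Sdha, Sdhb, Sdhc and Sdhd. The rule found 84 members among the 20314 genes in both deposited tables. Complex I was represented by 37 members, complex II by 4, complex III by 8, complex IV by 18 and complex V by 17. No row of the tables was a mitochondrial DNA-encoded gene, so the subunits made inside the organelle were not analysed here.

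RNA-seq had been done on 31 mouse libraries in 9 groups, to set "expandable hemangioblasts" (eHB) and their progeny beside control cells. Embryonic stem (ES) cells were 3 lines (RB2, RB3 and RB4) at passage 9, in N2B27 medium with CHIR99021, PD0325901 and LIF. Mesoderm was 3 libraries from the same lines, differentiated for 4 days with Activin A, CHIR99021, BMP4 and FGF2 and sorted for Kdr. The eHB group held 5 lines kept in 2 µg/mL doxycycline. The ES-derived lines were RB3.6.5 and RB4.6.9, line M5 had been made from embryonic fibroblasts, and fetal liver was the source of both FL4 and FL10. The ES-derived lines were also given VEGF, a cyclic AMP analogue, SB431542, BMP4 and FGF2, while M5, FL4 and FL10 were given FGF2 alone. The tables hold 6 rows for ectopic transcripts, which summed to 11063 to 14084 TPM (a length-corrected share of all transcripts) in the eHB libraries. Each of the 5 lines gave endothelial progeny after 3 days without doxycycline in VEGF, the cyclic AMP analogue, SB431542, BMP4 and FGF2. Each line also gave blood progeny in CHIR99021, SCF, IL-3 and Flt3L under 1.5% oxygen, sorted as VE-cadherin-positive cells without CD45 on day 2 and with CD45 on day 3. The uncultured controls were endothelium sorted for VE-cadherin and Pecam1 at E11.5, with 2 yolk sac and 2 embryo libraries, and 1 library of E14.5 hematopoietic stem cells (HSC; sorted as CD45+ CD201+ CD150+ CD48-). Each eHB line is a single line, and the labels do not say how many animals stood behind an uncultured library.

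Complex I takes electrons from NADH, complex II takes them from succinate, complex III passes them from ubiquinol to cytochrome c, and complex IV passes them to oxygen. Complexes I, III and IV pump protons, and complex V, the ATP synthase, uses the gradient to make ATP. Most subunits are made in the cytosol from nuclear genes and imported. Several subunits of complex IV come in alternative isoforms from separate genes, known for tissue-restricted or oxygen-dependent use. Fast-growing progenitors and stem cells are known to draw much of their ATP from glycolysis, and their differentiation often brings changes in mitochondrial mass. The name-based rule also takes in Cox7a2l, a factor that joins complexes III and IV into supercomplexes, and Atp5s and Atp5sl, which are not ATP synthase subunits in the strict sense. Ndufa4 is counted here with complex I by its name, although its protein is now assigned to complex IV.

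The promoters of these genes are known for binding sites of the nuclear respiratory factor NRF1, of the ETS factor GABP (also called NRF2) and of the estrogen-related receptors. RefSeq windows on GRCm38.p6, from 250 bases before to 50 bases after the start, were matched for 69 members and for 27025 genes in all. An exact NRF1 match (GCGCNTGCG, both strands) stood in 24 of the 69 members' windows, 34.8% against 7.12% of all genes. A GABP/ETS match (CCGGAAG) stood in 16, 23.2% against 9.93%, and a YY1 match (AAGATGGCG) in 8, 11.6% against 1.64%. An estrogen-related receptor match (TCAAGGTCA) stood in 2 windows, 2.9% against 0.466%. The hypoxia response element core (ACGTGC) stood in 4, 5.8% against 6.68%. None of these motifs contains another, and a match describes letters, not a bound site. NRF1 matches were in 9 of 32 windows for complex I, 2 of 3 for complex II, 3 of 5 for complex III, 1 of 13 for complex IV and 9 of 16 for complex V. The stretches below show examples of the matches for NRF1, GABP/ETS and the estrogen-related receptors, and a pair of them close together in Atp5l. No YY1 match is shown. Outside the stretches printed, the windows of Uqcr11 and Atp5g3 also hold an NRF1 match, and that of Atp5g3 the hypoxia response element core. They run 5′ to 3′ on the gene's strand, with the matches (here in the reverse orientation except for Uqcr11) in capitals. Ndufs5, an accessory subunit of complex I, holds an NRF1 match at chr4:123718245-123718334 (minus strand), 97 bases before the start. Uqcr11, the smallest subunit of complex III, holds a GABP/ETS match at chr10:80406851-80406940 (minus strand), 66 bases before the start. Atp5l, subunit g of the ATP synthase, holds an NRF1 and a GABP/ETS match at chr9:44920918-44920992 (minus strand), 241 and 212 bases before the start. Atp5g3, 1 of 3 genes for the proton-carrying c subunit, holds an estrogen-related receptor match at chr2:73911340-73911429 (minus strand), 52 bases before the start.
Ndufs5: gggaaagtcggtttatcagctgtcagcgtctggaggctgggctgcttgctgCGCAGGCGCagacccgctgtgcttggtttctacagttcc
Uqcr11: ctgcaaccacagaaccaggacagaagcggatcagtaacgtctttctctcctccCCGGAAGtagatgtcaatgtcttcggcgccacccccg
Atp5l: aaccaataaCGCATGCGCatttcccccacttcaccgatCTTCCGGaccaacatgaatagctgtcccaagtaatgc
Atp5g3: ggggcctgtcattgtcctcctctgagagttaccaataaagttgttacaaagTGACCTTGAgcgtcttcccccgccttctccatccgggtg

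Library totals ran from 9424412 expected counts (day 3 blood of RB3.6.5) to 79497758 (HSC). Marker lists held for the ES, endothelial and day 3 blood labels. Pluripotency genes summed to 3066 to 3149 TPM in ES cells. Endothelial genes summed to 4750 to 6007 TPM in day 3 endothelium against 118 to 346 in eHB. Leukocyte genes summed to 2200 to 3320 TPM in day 3 blood against 323 to 1088 in day 2 blood. ES cells had 250 to 294 TPM of these leukocyte genes. The mesoderm and HSC lists were not specific to their labels. Mesoderm genes summed to 676 to 909 TPM in mesoderm, above ES cells (7.14 to 14.1). They also reached 513 to 785 TPM in day 3 endothelium and 818 to 1180 in yolk sac endothelium. HSC genes summed to 596 TPM in the HSC library, within the 317 to 921 TPM of day 3 endothelium. Erythroid genes stood apart between lines. They summed to 61530 and 60733 TPM in day 2 blood of M5 and FL4, against 2641 to 6030 TPM in the other 3 lines, and to 32817 TPM in 1 embryo endothelial library against 2585 in the other. Macrophage genes summed to 9910 TPM in day 3 blood of M5 against 707 to 1965 in the other lines, and visceral endoderm genes to 9722 and 9972 TPM in yolk sac endothelium. The counts of called members are also given without day 2 blood of M5 and FL4, day 3 blood of M5 or the embryo library in question, where a comparison uses them.

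The respiratory chain was expressed in every group. Of the 84 members, 74 had a group mean of at least 20 TPM in all 9 groups, as did 3517 of the 20314 genes. Cox8b and Cox8c, isoforms known from muscle and testis, stayed under 1 TPM in all 31 libraries, and Cox6a2 and Cox7b2 reached at most 1.43 and 1.56 TPM. The 84 members together held 2.57% of the deposited TPM in ES cells, 2.99% in mesoderm, 2.95% in eHB and 3.02% in day 2 blood. The share was 2.47% in day 3 blood, 2.34% in day 3 endothelium, 2.37% in yolk sac and 2.52% in embryo endothelium, and 2.11% in the HSC library. Per library, the sum was 27475 to 32734 TPM in eHB and 28500 to 32501 in day 2 blood, and neither overlapped the 22525 to 25152 of day 3 endothelium or the 22403 to 27028 of day 3 blood. Mesoderm (28058 to 31177) lay within the range set by eHB and above ES cells (25462 to 26017). With globin and ectopic transcripts taken out of the total, the share was 2.99% in eHB and 3.12% in day 2 blood. In bulk RNA, fewer cells of a type and less RNA of a gene per cell cannot be told apart.

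**Figure D1:**
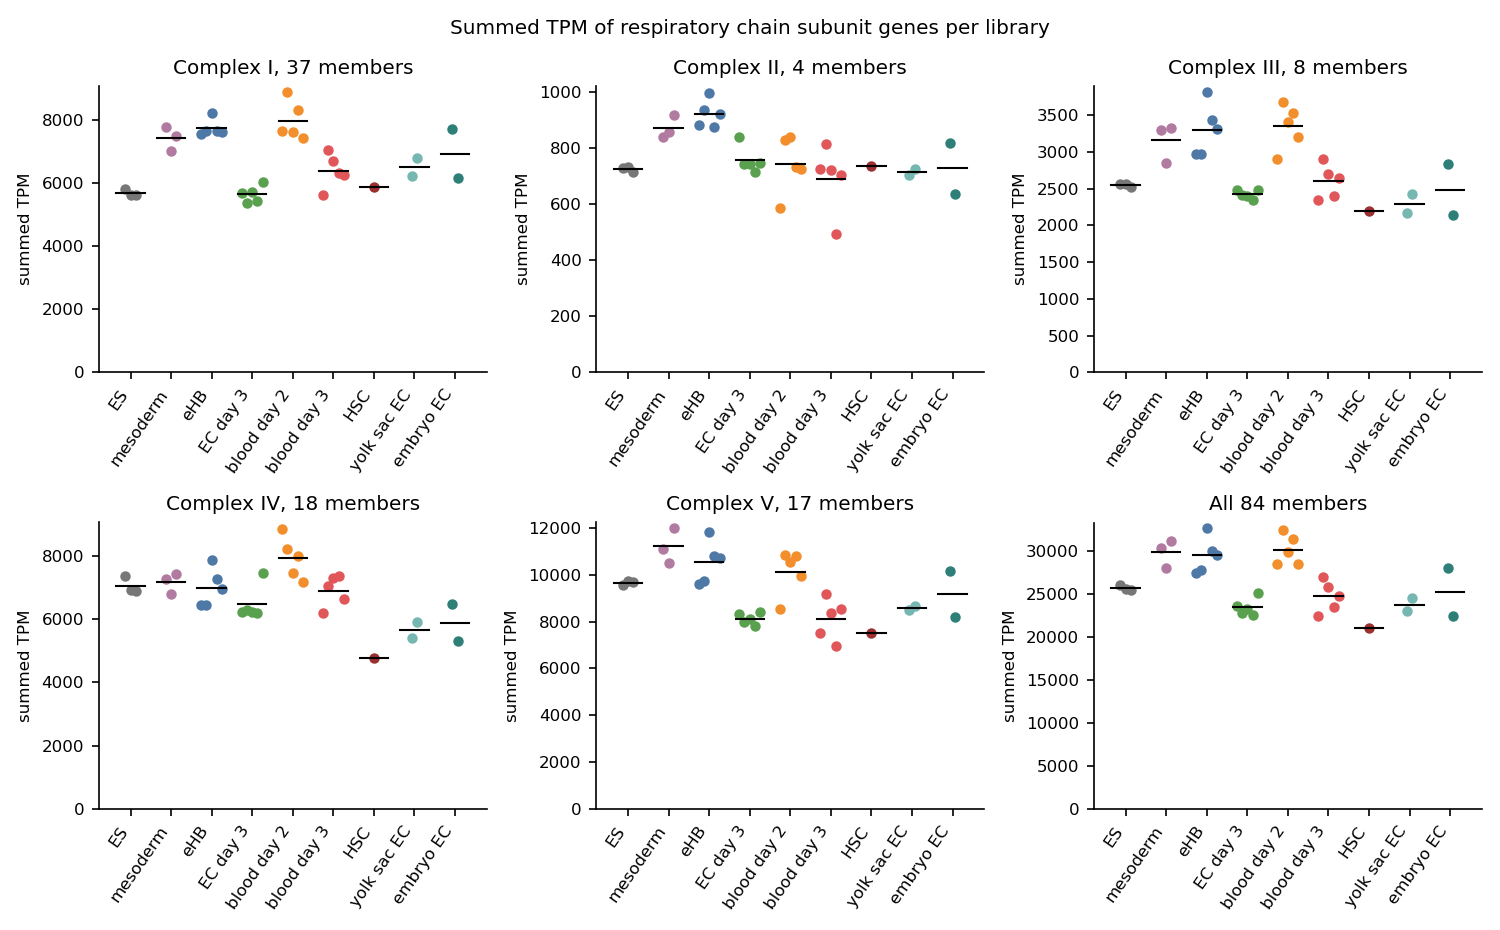
Summed TPM of the members of each complex in every library (points; bars are group means), for complexes I to V and all 84 members, over the 9 groups. The 5 eHB and 5 day 2 blood libraries sit above the 5 day 3 endothelial libraries for complexes I, III and V and for the full set.

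The complexes did not move as one block. Complex I went from a mean of 0.569% of TPM in ES cells to 0.743% in mesoderm and 0.775% in eHB, and stood at 0.565% in day 3 endothelium and 0.799% in day 2 blood. Complex V, with means of 0.968%, 1.12% and 1.05% in ES cells, mesoderm and eHB, was at 0.813% in day 3 endothelium and 1.01% in day 2 blood. Complex IV stood at 0.705%, 0.717% and 0.699% in the same 3 groups, and had its highest mean in day 2 blood (0.794%) and its lowest in the HSC library (0.477%). Complex II, the smallest, was at 0.0726% in ES cells and 0.0923% in eHB, then 0.0757% in day 3 endothelium and 0.0743% in day 2 blood. As parts of the members' own sum, complex I ranged over all libraries from 21.97% to 27.87%, complex III from 9.41% to 11.6%, complex IV from 22.6% to 31.3% and complex V from 29.6% to 38.5%. These within-library proportions do not depend on how libraries were scaled. Complex I held 21.97 to 22.34% of the sum in ES cells and 25.2 to 27.6% in eHB, and complex IV held 23.2 to 24.2% in eHB and 26.5 to 29.7% in day 3 endothelium. In both cases the ranges did not overlap. Complex IV here includes Cox7a2l by its name, whose TPM was higher in endothelium than in eHB in every line. The proportions were not computed without it.

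**Figure D2:**
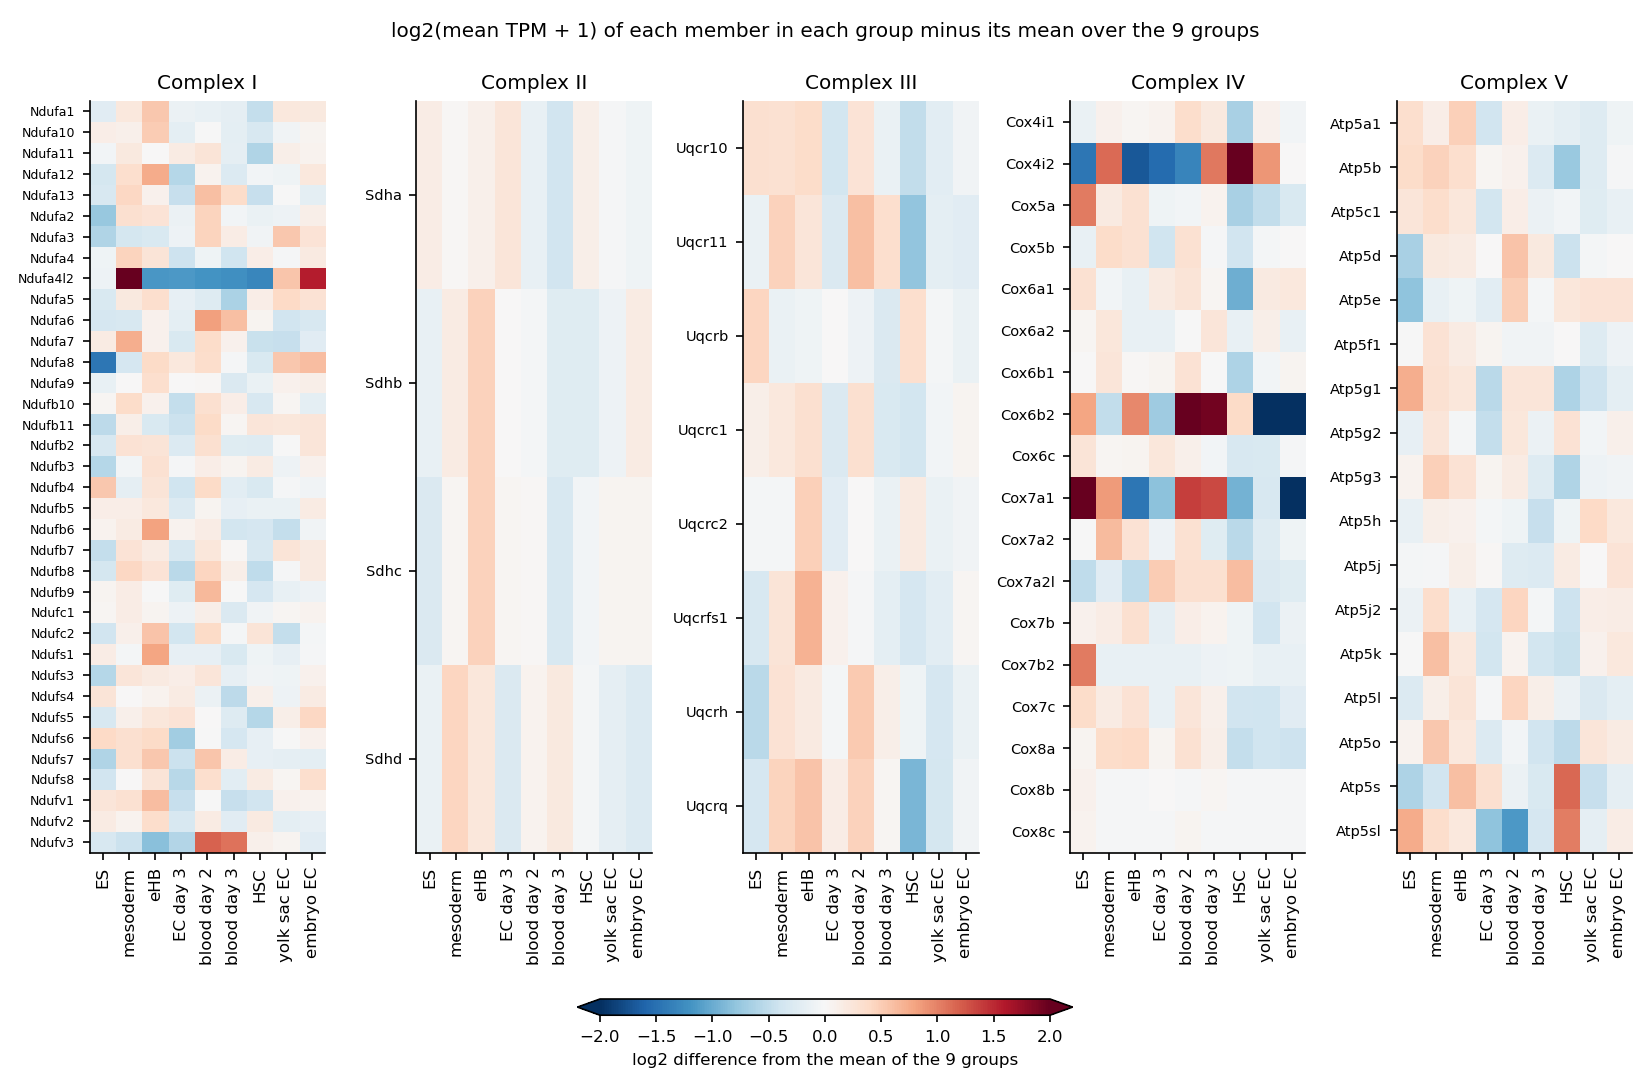
Each row is 1 of 83 members, grouped by complex, and each column 1 group. Colour gives log2(group mean TPM + 1) relative to the member's mean of these values over the 9 groups. Most rows vary little, and Cox6b2, Ndufa4l2, Cox4i2, Cox7a1 and Ndufv3 vary most.

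Most single members kept a narrow range. The SD of a member's 9 group means, on the log2(TPM + 1) scale, had a median of 0.319 over members. It was smallest for Ndufc1 (0.134; group means of 45.3 to 61.7 TPM), followed by Atp5f1 (0.156), Ndufb5 (0.175), Ndufa9 (0.181) and Atp5j (0.182), all of them structural subunits. It was largest for Cox6b2 (1.84), Ndufa4l2 (1.81), Cox4i2 (1.61) and Cox7a1 (1.51), which are all alternative isoforms, and then for Ndufv3 (0.70).

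Mesoderm was compared with the ES lines it came from. Most subunits were higher in mesoderm, in all 5 complexes. By edgeR's quasi-likelihood test (TMM scaling, Benjamini-Hochberg adjusted p under 0.05 over all genes tested), 65 of the 80 members tested rose, where 39.1% of all genes did, and 4 fell, where 40.0% did. On deposited TPM, tested with limma, the counts were 45 and 12. Here and below, the share of all genes called is given only for the TMM fits with every library of both groups. The members' median log2 fold change was 0.62 against −0.00 for all genes with TMM, and 0.28 against −0.29 on TPM. The scale therefore shifted all genes by about the same amount, and the members' distance from the median gene was 0.62 with TMM and 0.57 on TPM. Risen members numbered 32 of 37 in complex I, 4 of 4 in complex II, 7 of 8 in complex III, 8 of 14 in complex IV and 14 of 17 in complex V.

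Ndufa8, an accessory subunit of complex I on the intermembrane side, had 68.1, 62.1 and 67.1 TPM in ES cells and 140, 146 and 140 TPM in mesoderm. The groups did not overlap, and the log2 fold change was 1.44 ± 0.09 (SE; adjusted p = 7.65e-07). Ndufa2, an accessory subunit of the matrix arm, rose by 1.42 ± 0.10 (adjusted p = 2.4e-06). Ndufs7, a core subunit that carries an iron-sulfur cluster next to the quinone site, rose by 1.26 ± 0.13 (adjusted p = 1.76e-05). In complex III the hinge protein gene Uqcrh rose by 1.16 ± 0.14 (adjusted p = 7.32e-05), and the Rieske iron-sulfur protein gene Uqcrfs1 by 0.92 ± 0.09 (adjusted p = 1.6e-05). The 4 genes whose promoters are printed above rose as well under each scaling tried, with TMM log2 fold changes of 0.74 for Ndufs5, 0.94 for Uqcr11, 0.72 for Atp5l and 0.74 for Atp5g3. They were chosen after their values were seen, and 65 of the 80 members tested rose, so their rise says nothing about the motifs. Of the catalytic genes of ATP synthase, Atp5a1 did not pass the test (0.13 ± 0.10; adjusted p = 0.256), and its sign turned on TPM (−0.20).

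The 4 members that fell were Cox5a, Uqcrb, Cox6b2 and Cox7a1, and all 4 were called lower under each of the 4 scalings tried (TMM, edgeR's RLE size factors, library totals and TPM). Cox5a, an early-assembling subunit of complex IV, stood at 820, 811 and 770 TPM in ES cells and 413, 442 and 481 TPM in mesoderm. Its log2 fold change was −0.51 ± 0.09 (adjusted p = 0.00052). Cox6b2, known as the testis isoform of subunit 6b, changed by −0.97 ± 0.27 (adjusted p = 0.00989). Cox7a1, known as the heart and muscle isoform of subunit 7a, changed by −1.11 ± 0.25 (adjusted p = 0.00285). Uqcrb, a subunit next to the quinone site of complex III, changed by −0.24 ± 0.09 (adjusted p = 0.0427), and it missed the threshold when any of 4 libraries was left out. Of the 14 complex IV members tested, 8 rose and 3 fell.

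The eHB lines were compared with mesoderm, the control stage nearest to a hemangioblast. Relative to the median gene the subunits were lower in eHB, while their share of the mRNA pool differed little. With TMM, 31 of the 80 members tested fell, where 23.1% of all genes did, and 1 rose, where 23.5% did. On TPM the counts were 10 lower and 18 higher, and with library totals alone 18 lower and 6 higher. The members' median was 0.34 below that of all genes with TMM and 0.24 below it on TPM, where the median gene itself was 0.27 higher in eHB. With TMM the fallen members numbered 15 of 37 in complex I, 2 of 4 in complex II, 1 of 8 in complex III, 5 of 14 in complex IV and 8 of 17 in complex V. The count of fallen members was 17 without mesoderm of RB2 and 14 without mesoderm of RB4.

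Under all 4 scalings 9 members fell and Ndufs1 alone rose. Ndufs1 encodes the largest core subunit of the NADH-oxidising arm of complex I. It stood at 76.5, 95.8 and 97.2 TPM in mesoderm and at 151 to 176 TPM in the 5 eHB lines, with a log2 fold change of 0.51 ± 0.10 (adjusted p = 0.00503). Its span (GRCm38 chr1:63143596-63176833, minus strand) overlaps Eef1b2 on the other strand, and the counting is not stated to use strand. Ndufa7, an accessory subunit of complex I, had 552, 450 and 446 TPM in mesoderm and 350, 324, 291, 303 and 285 TPM in eHB, and fell by 0.97 ± 0.12 on the log2 scale (adjusted p = 0.000481). The groups did not overlap. Atp5j2, subunit f of the ATP synthase membrane part, fell by 0.82 ± 0.15 (adjusted p = 0.00282), and the X-linked accessory gene Ndufb11 by 0.75 ± 0.14 (adjusted p = 0.00351). The others of the 9 were Atp5k, Cox7a2, Ndufa13 and the isoform genes Cox4i2, Cox7a1 and Ndufa4l2, which are described further on. Cox4i2 and Ndufa4l2 had 0 to 2 and 0 to 3 counts in eHB and passed the low-count filter only through mesoderm.

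Day 3 endothelium was compared with the eHB lines it came from, a step that removes doxycycline in all lines and also changes the medium of M5, FL4 and FL10. Subunit genes were lower in the endothelial progeny. Complex I, with the most members, held the largest number of them, though not the largest share. With TMM, 46 of the 78 members tested fell, where 35.6% of all genes did, and 3 rose, where 34.3% did. The members' median was −0.40 against −0.04 for all genes, and TPM gave 50 lower and 3 higher. Fallen members numbered 24 of 36 in complex I, 3 of 4 in complex II, 6 of 8 in complex III, 6 of 13 in complex IV and 7 of 17 in complex V. Of the 46, 45 were called lower under all 4 scalings.

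Ndufa12, an accessory subunit added late in complex I assembly, had 275, 337, 316, 251 and 298 TPM in eHB and 113 to 124 TPM in the 5 endothelial libraries. It fell by 1.29 ± 0.10 on the log2 scale (adjusted p = 2.18e-06), and every endothelial library lay under every eHB library. Ndufv1, which binds NADH and the flavin, went from 203 to 238 TPM down to 94.95 to 112 TPM and fell by 1.05 ± 0.08 (adjusted p = 1.99e-06). Ndufs6, a zinc-binding accessory subunit, went from 176 to 205 TPM down to 80.7 to 98.2 TPM and fell by 1.06 ± 0.09 (adjusted p = 3.25e-06), and its span overlaps Mrpl36 on the other strand. Ndufs1 returned to 78.1 to 84.7 TPM and fell by 0.93 ± 0.08 (adjusted p = 3.99e-06). The groups did not overlap for any of these 4 genes of complex I.

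The genes of other complexes given next changed by less than the complex I genes above. Of those, Ndufa12 and Ndufs6 were named for being among the largest called falls, so the choices are unlike. Atp5a1, the α subunit of ATP synthase, stood at 1230 to 1493 TPM in eHB and 738 to 784 TPM in endothelium, and fell by 0.83 ± 0.10 (adjusted p = 3.37e-05). Its partner Atp5b, the catalytic β subunit, did not pass the test (−0.27 ± 0.11; adjusted p = 0.0596). Uqcrc1 and Uqcrfs1 of complex III each fell by 0.59, with SEs of 0.17 and 0.11 and adjusted p-values of 0.00983 and 0.00071. Sdhb, the iron-sulfur subunit of complex II, fell by 0.43 ± 0.10 (adjusted p = 0.0028), whereas its flavoprotein partner Sdha did not pass (0.17 ± 0.11; adjusted p = 0.187). Cox5a fell by 0.36 ± 0.11 (adjusted p = 0.0163). Atp5g1, a c subunit gene, fell by 0.86 ± 0.18 (adjusted p = 0.00127), from 368 to 683 TPM in eHB to 274 to 310 TPM in endothelium.

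Cox7a2l and Ndufv3 were among the members that rose. Cox7a2l, the supercomplex factor, had 349, 296, 227, 291 and 282 TPM in eHB (RB3.6.5, RB4.6.9, M5, FL4 and FL10) and 647, 641, 498, 546 and 597 TPM in endothelium of the same lines. It was higher in 5 of 5 lines, by a log2 fold change of 1.06 ± 0.11 (adjusted p = 1.25e-05), and it was called under all 4 scalings. Ndufv3, an accessory subunit of the NADH-oxidising arm, rose by 0.43 ± 0.11 (adjusted p = 0.00486), and it lost the call with library totals alone.

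**Figure D3:**
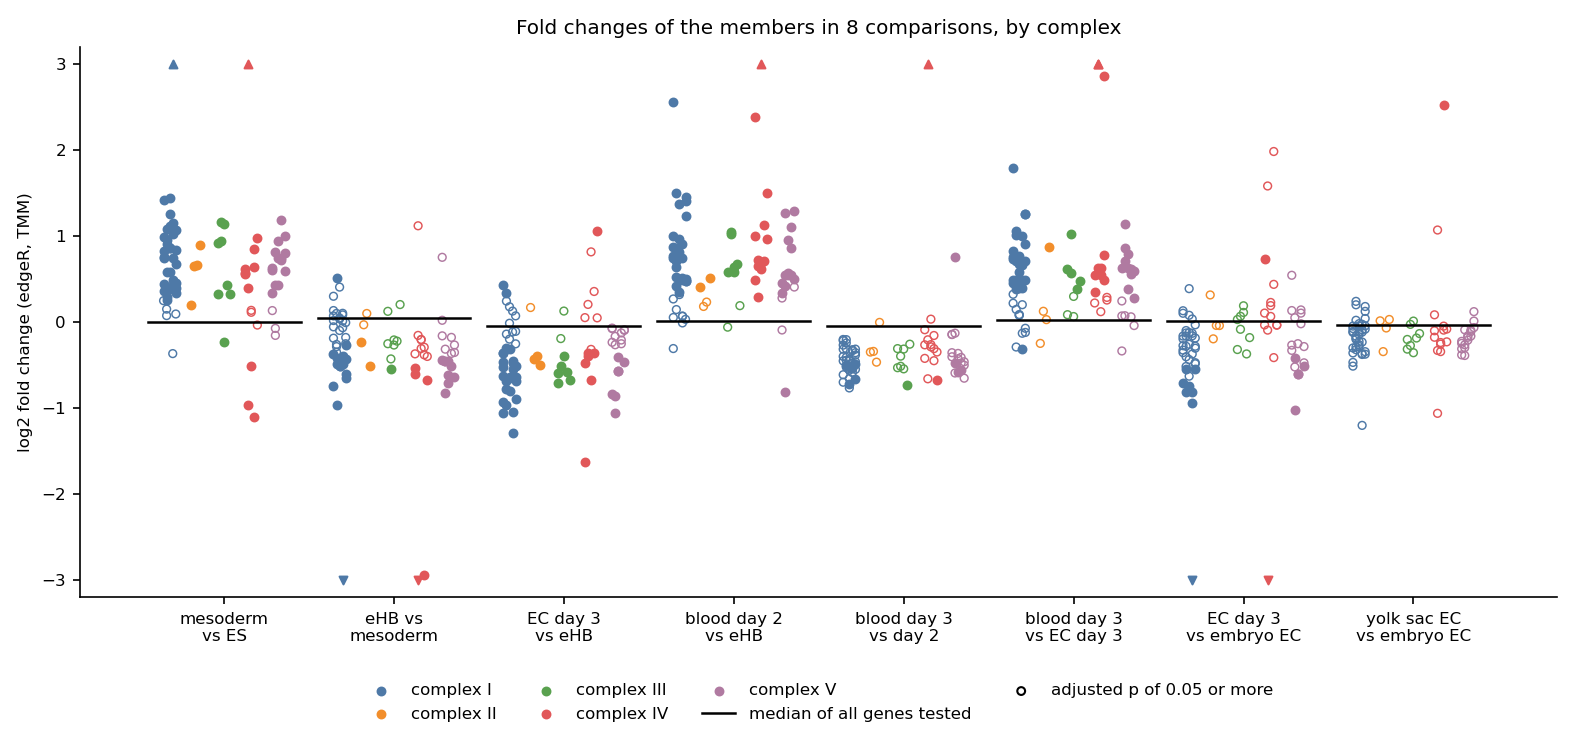
Log2 fold changes of the tested members (edgeR, TMM) in 8 comparisons, coloured by complex. Filled points passed an adjusted p of 0.05, black bars are the median of all genes tested, and triangles lie beyond the axis. The members sit above the bar for mesoderm against ES cells and for both blood stages against their partner stage outside blood, and below it for day 3 endothelium against eHB.

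Day 2 blood was compared with the same 5 eHB lines. The comparison changes medium, oxygen and doxycycline together, and their parts cannot be told apart from that of the stage. Relative to the median gene, the subunits were higher in day 2 blood in all 5 complexes. With TMM, 61 of the 78 members tested rose, where 28.5% of all genes did, and 1 fell, where 25.5% did. On TPM 17 rose and 17 fell, and with library totals alone 25 rose and 4 fell, without a share of all genes to set beside them. The median gene was 0.56 lower in day 2 blood on TPM and 0.37 lower with library totals, and the members' median stood above it by 0.59 with TMM, 0.57 with totals and 0.50 on TPM. The subunits therefore held about the same share of the mRNA pool as in eHB, in a pool in which most other genes held less. Without day 2 blood of M5 and FL4, the libraries with the most globin mRNA, 40 members rose and 3 fell, and the part of the erythroid cells was not tested.

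Under all 4 scalings 17 members rose and 1 fell. Ndufv3 had 99.8, 95.8, 94.6, 84.9 and 72.1 TPM in eHB (RB3.6.5, RB4.6.9, M5, FL4 and FL10) and 458, 326, 389, 363 and 289 TPM in day 2 blood of the same lines. The groups were far apart, with means of 89.4 TPM in eHB and 365 TPM in day 2 blood. Fold changes in this paragraph are with TMM, relative to the median gene. That of Ndufv3 was 2.56 ± 0.19 on the log2 scale (adjusted p = 1.75e-05), a 5.91-fold difference, and 2.41 without M5 and FL4. Cox7a2l stood at 466 to 589 TPM in day 2 blood and rose by 1.50 ± 0.14 (adjusted p = 7.42e-05; 1.35 without M5 and FL4). Since Cox7a2l also rose in endothelium, its level was higher than in eHB in both kinds of progeny. Of the others, chosen after their values were seen, Ndufa3 rose by 1.50 ± 0.29, Ndufa6 by 1.45 ± 0.24, Ndufb9 by 1.38 ± 0.22, and the ATP synthase ε subunit gene Atp5e by 1.29 ± 0.18 (adjusted p = 0.00186, 0.00101, 0.000742 and 0.000401). Without M5 and FL4 these values were 1.09, 1.02, 0.99 and 1.03, and all 4 passed the test. Cox4i1, the ubiquitous form of the oxygen-sensitive subunit 4, rose by 1.00 ± 0.18 (adjusted p = 0.00131; 0.78 without M5 and FL4). Uqcr11, with the GABP/ETS match printed above, stood at 368, 366, 523, 493 and 429 TPM in eHB and 513 to 637 TPM in day 2 blood, and rose by 1.05 ± 0.20 (adjusted p = 0.00178; 0.79 without M5 and FL4).

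Several core subunits depended on the scale. Atp5b was higher by 0.42 ± 0.14 with TMM (adjusted p = 0.0242) and lower by 0.25 on TPM, and without M5 and FL4 it missed the threshold (0.30; adjusted p = 0.0999). Ndufv1, Sdhb, Cox5a and Atp5a1 likewise had TMM fold changes above 0 and TPM changes of −0.63, −0.49, −0.37 and −0.33. Of these 4, Cox5a and Atp5a1 passed with TMM (adjusted p = 0.0471 and 0.0347), and both missed the threshold without M5 and FL4 (0.0791 and 0.145). The single gene that fell was Atp5sl, from 17.3 to 28.6 TPM in eHB to 5.56 to 11.3 TPM in day 2 blood (−0.82 ± 0.18; adjusted p = 0.00416; −0.79 without M5 and FL4). Ndufs1 did not pass the test (−0.31 ± 0.15; adjusted p = 0.0981), though all 5 day 2 libraries, at 52.1 to 102 TPM, lay under all 5 eHB libraries. It passed without M5 and FL4 (−0.41; adjusted p = 0.0172).

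**Figure D4:**
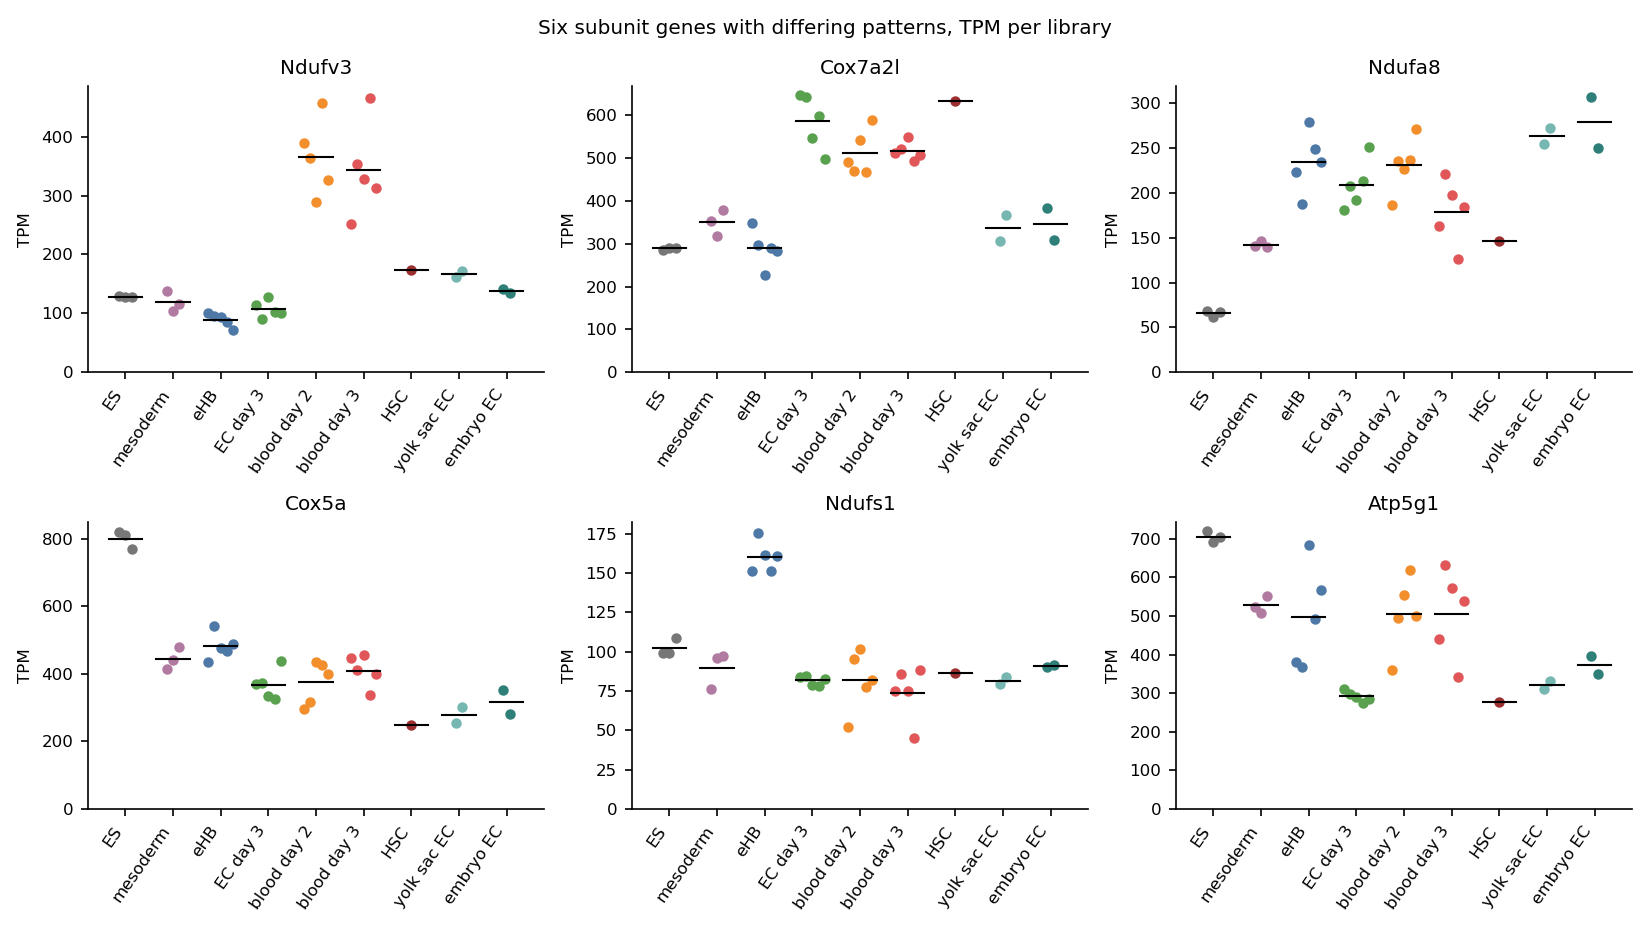
TPM of Ndufv3, Cox7a2l, Ndufa8, Cox5a, Ndufs1 and Atp5g1 in every library (points; bars are group means), by group. Ndufv3 is high in the 10 blood libraries only, Cox7a2l in all progeny of eHB and in the HSC library, Cox5a in ES cells and Ndufs1 in eHB.

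Day 3 blood, now CD45-positive, was compared with day 2 blood in the same medium and oxygen. Few single members passed the test, although most values were lower on day 3. With TMM, 10 of the 79 members tested fell, where 2.87% of all genes did, and 2 rose, where 7.31% did. With the line as a replicate block 4 fell, Uqcrc1, Ndufb4, Ndufb6 and Atp5g3, and 2 rose. Fold changes lay below 0 for 76 of the 79, with a median of −0.42 against −0.05 for all genes. Uqcrc1, a core subunit of complex III, stood at 375, 475, 453, 466 and 435 TPM on day 2 (M5, FL4, FL10, RB3.6.5 and RB4.6.9) and 244, 323, 286, 277 and 296 TPM on day 3. Its days did not overlap, and it fell by 0.74 ± 0.16 (adjusted p = 0.0199). Ndufb4, an accessory subunit of complex I, went from 121 to 156 TPM to 77.3 to 102 TPM and fell by 0.73 ± 0.17 (adjusted p = 0.0223). Ndufb6 fell by 0.66 ± 0.15 (adjusted p = 0.0208), and Cox7a2 by 0.67 ± 0.19 (adjusted p = 0.0486; 0.0543 with the block). Of the members that rose, Cox4i2 passed the low-count filter only through day 3 blood and is described with the isoforms. Atp5sl rose by 0.75 ± 0.17 (adjusted p = 0.0218). On all libraries 38 members were lower at an unadjusted p under 0.05, and 28 were called by DESeq2 and 9 by limma on TPM. The share of all genes is not given for these counts, and the 2.87% above is not their background. The edgeR calls rested on few libraries: they numbered 0 without day 3 blood of M5 or of RB4.6.9 or without day 2 blood of RB3.6.5, and 22 without day 3 blood of RB3.6.5, the shallowest library. With day 2 blood of M5 and FL4 left out, 0 members fell by edgeR, and the median was −0.17 against 0.05.

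Day 3 blood and day 3 endothelium are sister progeny of the same lines and differ in medium and oxygen. With TMM, 51 of the 79 members tested were higher in blood, where 31.1% of all genes were, and 1 was lower, where 30.2% were. On TPM 19 were higher and 11 lower. Without day 3 blood of M5, the library with the most macrophage mRNA, 50 were higher and 1 lower. The members' median exceeded that of all genes by 0.47 with TMM and by 0.43 on TPM. Under all 4 scalings 19 of the 79 were higher, among them Cox4i2, which passed the low-count filter only through blood. Complex I held 10 of these 19 and 36 of the 79 tested, shares close to each other. The 10 included Ndufv3 (1.797 ± 0.21, adjusted p = 5.85e-05), Ndufa13 (1.26 ± 0.20, adjusted p = 0.000409), Ndufs7 and Ndufs8. Ndufa13 had 107, 95.05, 140, 133 and 112 TPM in endothelium and 248, 177, 181, 225 and 212 TPM in blood of RB3.6.5, RB4.6.9, M5, FL4 and FL10, and the groups did not overlap. Atp5g1 was higher in blood by 1.14 ± 0.11 (adjusted p = 1.32e-05) and Uqcr11 by 1.03 ± 0.14 (adjusted p = 0.000168). Ndufs4, an accessory subunit known from inherited complex I deficiency, was the 1 lower member (−0.31 ± 0.09; adjusted p = 0.0113). This comparison uses the libraries of the earlier ones, so the 3 sets of values are not independent of one another.

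Cultured endothelium was compared with freshly sorted E11.5 embryo endothelium, of which there were 2 libraries. With TMM, 15 of the 80 members tested were called, where 45.4% of all genes were, so the members' share of calls did not exceed the background. Of these, 14 were lower in culture, where 23.4% of all genes were, and 1 was higher. All 15 calls held under the 4 scalings. The 14 were 8 of the 37 members tested in complex I, 5 of 17 in complex V and 1 of 14 in complex IV. Among them, Cox4i2 and Ndufa4l2 passed the low-count filter only through the embryo libraries. Ndufs8, a core iron-sulfur subunit, stood at 73.5 to 85.4 TPM in culture and at 176 and 125 TPM in the embryo, with a log2 fold change of −0.94 ± 0.19 (adjusted p = 0.00594). Ndufs6 and Ndufa12, which fell from eHB to endothelium, had log2 fold changes of −0.82 each against the embryo (adjusted p = 0.00834 and 0.0106). That of Atp5sl was −1.02 ± 0.16 (adjusted p = 0.0024). Cox7a2l was higher in culture, at 498 to 647 TPM against 383 and 308 TPM (0.74 ± 0.19; adjusted p = 0.0164), and missed the threshold without the second embryo library (0.49). The 2 embryo libraries differed in erythroid markers, as given above: the count of lower members was 3 without the first of them and 30 without the second, which has the more erythroid mRNA, and that mRNA's part in the counts was not tested.

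Yolk sac and embryo endothelium differed in 1 member. Cox7a1 was higher in yolk sac, at 7.88 and 7.63 TPM against 1.07 and 1.54 TPM (log2 fold change 2.52 ± 0.62, adjusted p = 0.014), where 15.9% of all genes were higher. It had 35 and 40 counts in yolk sac and 7 in each embryo library, and passed the low-count filter only through yolk sac. No member was lower by edgeR, where 8.54% of all genes were. At an unadjusted p under 0.05, 2 were lower, and DESeq2 and limma each called 0, without a share of all genes to set beside them. Cox7a1 missed the threshold without the first embryo library (2.39), and 20 members were called lower without the second embryo library. Visceral endoderm and mural genes, given above for the first, were higher in the yolk sac libraries, and their part was not tested.

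The HSC library had no replicate, so its values were set against the range of the 5 day 3 blood libraries without a test. Of the 79 members with at least 1 TPM in either group, 3 lay above that range and at least 1 log2 unit from its median, where 32.4% of 12352 genes did, and 3 lay below, where 6.91% did. Without day 3 blood of M5 the counts were 3 and 4. The median difference on the log2(TPM + 1) scale was −0.15 for the members and 0.62 for all genes. Cox4i2, Atp5sl and Atp5s were the higher members, at 24.1, 42.2 and 18.99 TPM in HSC against 3.92 to 9.34, 8.81 to 19.3 and 3.68 to 8.76 TPM. Cox7a1, Uqcr11 and Cox6a1 were the lower ones, at 4.68, 214 and 357 TPM against 14.4 to 53.4, 352 to 548 and 596 to 864 TPM. None of the 36 complex I members kept met the rule. Cox5a stood at 249 TPM, below every day 3 blood library.

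The alternative isoforms of complex IV showed the widest swings, each with its own order of groups. Cox6b2 (GRCm38 chr7:4751792-4753094, minus strand) had 157, 143 and 129 TPM in ES cells and 85.1, 46.1 and 43.7 TPM in mesoderm. In eHB it had 245, 192, 194, 83.7 and 91.5 TPM (RB3.6.5, RB4.6.9, M5, FL4 and FL10), and in endothelium of the same lines 24.04, 34.6, 141, 12.96 and 38.1 TPM. Every line was lower in endothelium than in its own eHB culture. In day 2 blood the same lines had 295, 178, 1380, 235 and 200 TPM, and in day 3 blood 804, 247, 194, 45.8 and 297 TPM. The uncultured endothelium had 6.51 to 25.8 TPM, below every cultured group's median, and the HSC library 108 TPM. Cox6b2 provided a median of 15.5% of the pair Cox6b1 and Cox6b2 in ES cells, 4.77% in mesoderm, 17.3% in eHB, 4.30% in endothelium, 18.6% in day 2 blood and 23.5% in day 3 blood. In single blood libraries it exceeded the common form, with 56.6% on day 2 in M5 and 50.1% on day 3 in RB3.6.5.

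The tests of Cox6b2 depended on single lines. It fell from eHB to endothelium by 1.62 ± 0.61 on the log2 scale (adjusted p = 0.0355), and missed the threshold when any of 7 of the 10 libraries was left out. It rose from eHB to day 2 blood by 2.39 ± 0.73 (adjusted p = 0.0186), and without M5 and FL4 the value was 0.97 (adjusted p = 0.0624). It was higher in day 3 blood than in endothelium by 3.23 ± 0.90 (adjusted p = 0.00995), with 1.798 in the tissue-derived lines alone (adjusted p = 0.174). The day 2 libraries of M5 and FL4, with 1380 and 235 TPM of Cox6b2, had 61530 and 60733 TPM of erythroid markers, and the part of those cells was not tested.

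Cox7a1 (chr7:30184144-30186078, plus strand) had 50.3 to 51.3 TPM in the 3 ES lines and 10.9, 24.5 and 21.3 TPM in mesoderm. It was low in eHB, at 1.22 to 4.91 TPM, and in endothelium, at 1.39 to 9.92 TPM. In day 2 blood it had 35.03, 30.7, 54.5, 9.67 and 9.04 TPM (RB3.6.5, RB4.6.9, M5, FL4 and FL10), and every line exceeded every eHB library. With TMM the log2 fold change was 3.95 ± 0.69 (adjusted p = 0.00122), 15.5-fold relative to the median gene. It was 3.53 without M5 and FL4 (adjusted p = 0.0026). Against mesoderm, eHB was lower by a log2 fold change of −2.94 ± 0.51 (adjusted p = 0.00226). Day 3 blood exceeded endothelium by 2.86 ± 0.66 (adjusted p = 0.00371). Cox7a1 provided a median of 13.3% of the pair Cox7a1 and Cox7a2 in ES cells, 0.833% in eHB and 7.59% in day 2 blood. Its promoter window is among the 4 with the hypoxia response element core. Members held that core no more often than all genes (5.8% against 6.68%), and its part in these levels was not tested.

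Cox4i2 (chr2:152754173-152765037, plus strand), the isoform of subunit 4 known for induction by low oxygen, followed neither of these. It was listed at 0 in 4 eHB lines and at 0.143 TPM in RB4.6.9, and stayed at or under 0.418 TPM in endothelium and 0.714 TPM in day 2 blood, which was kept in 1.5% oxygen. In day 3 blood, in the same oxygen, it had 3.92, 5.25, 4.80, 9.34 and 6.45 TPM (RB3.6.5, RB4.6.9, M5, FL4 and FL10). The days did not overlap, and edgeR called it higher on day 3 (adjusted p = 0.00691; 0.044 without day 2 blood of M5 and FL4) and higher than in endothelium (adjusted p = 0.000134). Mesoderm had 8.69, 4.69 and 5.66 TPM, yolk sac endothelium 5.37 and 4.98, embryo endothelium 2.31 and 2.44, and the HSC library 24.1 TPM. Even there Cox4i2 made up 3.81% of the pair with Cox4i1, and at most 0.832% in any other library.

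Ndufa4l2 (chr10:127514967-127517154, plus strand), a paralog of Ndufa4 known as a hypoxia-induced gene, was highest in mesoderm. It had 17.4, 49.7 and 50.2 TPM there, against 0.619 to 1.86 TPM in ES cells, and provided 2.23% to 6.85% of the pair with Ndufa4. In eHB, endothelium and both blood stages it was at or under 0.274 TPM, the blood cultures in 1.5% oxygen included. Yolk sac endothelium had 2.24 and 2.97 TPM and embryo endothelium 1.66 and 10.9 TPM, and edgeR called it lower in cultured than in embryo endothelium (adjusted p = 0.00305). Ndufa4l2 passed the low-count filter there only through the embryo libraries, with 25 and 115 counts against 0 to 5 in culture. The call therefore adds nothing to the levels. Its span overlaps Shmt2 on the other strand.

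**Figure D5:**
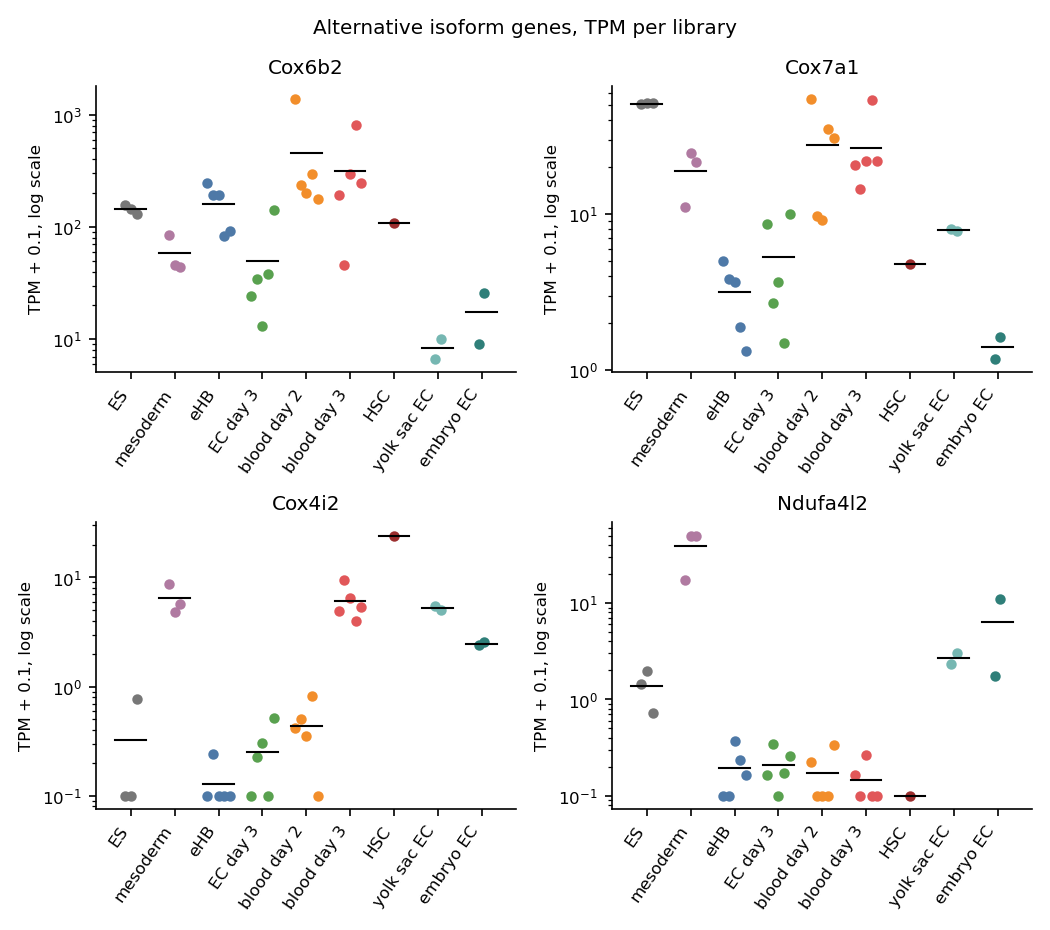
TPM of Cox6b2, Cox7a1, Cox4i2 and Ndufa4l2 in every library on a log axis (TPM + 0.1; bars are group means), by group. Cox4i2 separates day 3 from day 2 blood, Ndufa4l2 separates mesoderm from the other cultured groups, and Cox6b2 shows 1 day 2 blood library at 1380 TPM.

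The 3 c subunit genes encode the same mature protein behind different import sequences, and their balance also differed by group. Atp5g1 provided 30.5 to 31.7% of their summed TPM in ES cells, above the 17.9 to 27.3% of eHB and the 16.3 to 17.5% of endothelium, and 21.2 to 29.3% in day 3 blood. Atp5g3, with the estrogen-related receptor match printed above, provided 48.98 to 55.02% in endothelium and 32.4 to 40.0% in day 3 blood, which did not overlap. Atp5g2 provided 51.3% in the HSC library, against 24.8 to 46.4% in the other 30. Reads from near-identical copies of such small subunit genes, pseudogenes included, may have been divided among them.

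Other mitochondrial genes were counted by lists for assembly factors, electron carriers, the citric acid cycle without complex II, mitochondrial transcription and biogenesis, nucleotide carriers, and the mitochondrial ribosome. From eHB to endothelium, where 35.6% of all genes fell and 34.3% rose, 25 of 41 assembly factors, 10 of 12 electron carrier genes, 10 of 14 citric acid cycle genes, 10 of 16 biogenesis genes, 3 of 8 nucleotide carriers and 64 of 76 mitochondrial ribosome genes fell. Of the same lists 6 assembly factors, 1 electron carrier gene, 1 nucleotide carrier or channel and 2 mitochondrial ribosome genes rose. The medians were −0.81, −1.24, −0.45, −0.77, −0.30 and −0.92, against −0.40 for the subunits and −0.04 for all genes. Ndufaf6, a complex I assembly factor, went from a mean of 39.3 TPM to 6.83 TPM (−2.50 ± 0.17; adjusted p = 7.68e-07), and Ecsit, another, from 64.1 to 11.9 TPM (−2.41 ± 0.20; adjusted p = 2.49e-06). Peo1, the mitochondrial DNA helicase, fell by 2.92 ± 0.17 (adjusted p = 3.26e-07), and Pprc1, a coactivator of the PGC-1 family, by 2.41 ± 0.21 (adjusted p = 4.53e-06). Slc25a5, an ADP/ATP carrier gene, had means of 1270 and 526 TPM and fell by 1.25 ± 0.15 (adjusted p = 2.78e-05), while the outer membrane channel gene Vdac2 rose by 0.32 ± 0.07 (adjusted p = 0.00187). Coq10b, a coenzyme Q-binding protein, rose by 2.01 ± 0.18 (adjusted p = 4.18e-06). Cytosolic ribosome rows fell as well, 73 of 89 with 3 rising.

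In day 2 blood the lists differed in direction, where 28.5% of all genes rose and 25.5% fell. With TMM, 9 of 41 assembly factors rose and 10 fell (5 and 23 on TPM), and 4 of 14 citric acid cycle genes rose and 4 fell (0 and 10 on TPM), shares near those of all genes. Of 12 electron carrier genes 1 rose and 2 fell (1 and 10 on TPM), of 15 biogenesis genes 0 rose and 7 fell (0 and 13 on TPM), and of 8 nucleotide carriers and channels 5 rose and 0 fell (1 and 2 on TPM). Mitochondrial ribosome genes gave 25 higher and 11 lower with TMM, and 2 higher and 38 lower on TPM, and 15 higher and 14 lower without M5 and FL4. Cytosolic ribosome rows gave 79 higher and 5 lower of 89 with TMM and 52 and 9 on TPM, with a TMM median of 1.06 that lay above the 0.60 of the respiratory subunits. Of 16 hypoxia-responsive genes 11 rose and 1 fell, among them the oxygen-sensing hydroxylase gene Egln3 (5.10 ± 0.33; adjusted p = 1.13e-05), with a mean of 168 TPM against 7.87.

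From ES cells to mesoderm, where 39.1% of all genes rose and 40.0% fell, 22 of 41 assembly factors and 56 of 76 mitochondrial ribosome genes rose, and 6 and 4 fell. On TPM the counts were 15 and 9 for assembly factors and 39 and 14 for the mitochondrial ribosome. Slc25a4, the ADP/ATP carrier known from heart and muscle, rose from a mean of 140 to 555 TPM (2.31 ± 0.09; adjusted p = 5.15e-08), and cytochrome c (Cycs) rose by 0.97 ± 0.08 (adjusted p = 6.96e-06). The estrogen-related receptor gene Esrra rose by 1.66 ± 0.12 (adjusted p = 2.61e-06), while the biogenesis list as a whole had 2 higher and 7 lower of 15. Cytosolic ribosome rows, 10 of which are S6 kinase genes caught by the name rule, moved with the subunits here too, with 73 of 92 higher (53 on TPM). From mesoderm to eHB, 79 of 90 such rows fell with TMM, where 23.1% of all genes did, and 45 fell on TPM. Of 80 subunits, 31 fell with TMM and 10 on TPM.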

How the data were processed

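Libraries were made with the TruSeq RNA v2 kit, per the labels' protocols, and the strand setting is not given there. The authors deposited expected counts per gene and TPM. The submitters' processing notes name mm10 and the tools Bowtie 0.12.9, RSEM 1.2.3 and CASAVA 1.8.2. How the deposited TPM were normalised is not given in the sources used here. The TPM header has 1 surplus name, so columns were taken by name and order, and in 31 of 31 libraries the pattern of zeros was closest to the library's own count column.

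Expected counts were rounded and tested with edgeR 4.0.16 (R 4.3.3; TMM, filterByExpr, robust quasi-likelihood F test, Benjamini-Hochberg over all genes tested, threshold 0.05), with only the groups compared in each fit. TMM fold changes are relative to the median gene, and TPM is a share of the mRNA pool. Alternatives were RLE factors, library totals, DESeq2 1.42.0, no filter, limma 3.58.1 on log2(TPM + 1), each library left out, the line as replicate block, and ES-derived or tissue-derived lines alone. The method was tested on simulated counts. Gene positions are from GENCODE (84 of 84 matched; 37 overlap another gene), and promoters from RefSeq (69 matched). Protein sequences were not used here.

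Members and lists were chosen with earlier results of these data known. Values of some single genes are not reported here. Named genes were fixed catalytic subunits, all isoform genes, the up to 4 largest called changes each way per comparison with at least 20 TPM in the higher group, the 5 most and 5 least variable members, and up to 2 each way per related list. The genes with printed promoters were chosen after their values were seen, as examples of a motif, and so were Uqcrh, Ndufa3, Ndufa6, Ndufb9, Atp5e, Atp5s, Ndufs7, Ndufs8, Atp5k and Ndufa13 where a comparison names them outside that rule. Lines pair samples because both groups came from the same line. Over 10596 genes, same-line deviations from the group means correlated by 0.30 to 0.45 (endothelium and eHB), 0.16 to 0.30 (day 2 blood and eHB), 0.084 to 0.68 (the blood days), 0.048 to 0.32 (day 3 blood and endothelium) and −0.094 to 0.079 (mesoderm and ES cells). Replicates are lines or sorted samples, and where nothing says that samples are separate animals or cultures the p-values measure only the spread between these samples.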

Additional observations from a re-analysis of the deposited data

Results flagged for a closer look

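Within groups of 5 libraries, 13 of 92 sets of values examined had 1 library far from the other 4 by Dixon's criterion, which chance alone gives in about 1 of 20. The M5 line accounted for 8 of them. Cox6b2, Cox7a1 and Cox4i2 were each flagged both by TPM and by share of the pair in the same library. The sets are thus not independent, and the rate given for chance is only a rough guide. In eHB, M5 had 0.823% of TPM in complex I (others 0.757 to 0.766%). In day 3 endothelium, M5 had 0.747% in complex IV (0.620 to 0.627%), 141 TPM of Cox6b2 (12.96 to 38.1), 12.9% Cox6b2 in the pair with Cox6b1 (1.57 to 4.61%) and 91.9 TPM of Ndufb4 (75.4 to 78.0). In day 2 blood, M5 had 1380 TPM of Cox6b2 (178 to 295), 56.6% Cox6b2 in its pair (17.04 to 22.7%) and 120.4 TPM of Ndufa12 (188 to 213). Erythroid markers in M5 endothelium summed to 2217 TPM, against 2.7 to 149 in the other lines, and their part was not tested. In RB3.6.5, day 3 endothelium had 0.0839% in complex II (0.0714 to 0.0747%), and day 3 blood had 53.4 TPM of Cox7a1 (14.4 to 21.9) and 17.03% Cox7a1 in its pair (4.34 to 7.34%). Day 3 blood of RB3.6.5 had the lowest library total and 14534 TPM of erythroid markers, against 333 to 1910 in the other lines. In eHB of RB4.6.9, Cox4i2 was at 0.143 TPM and 0.0171% of its pair, and was listed at 0 in the other 4 lines.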

How the results depend on the processing

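Counts of called members moved with the scaling and with single libraries. For these alternatives the share of all genes called is not given, so the counts cannot be set against it. On TPM with limma, 12 members were lower in mesoderm than in ES cells; eHB against mesoderm gave 18 higher and 10 lower; day 2 blood against eHB 17 and 17; day 3 blood against endothelium 19 and 11; and 3 were higher in cultured than embryo endothelium, 2 in yolk sac, and 1 in day 3 than day 2 blood. With library totals, eHB against mesoderm gave 6 higher and 18 lower, endothelium against eHB 1 higher, day 2 blood against eHB 25 and 4, day 3 against day 2 blood 1 higher, day 3 blood against endothelium 0 lower, and cultured against embryo endothelium 31 lower. RLE factors gave 5 higher in endothelium than eHB. DESeq2 gave 2 higher in eHB than mesoderm, 5 higher in endothelium than eHB, 28 lower in day 3 than day 2 blood, and 2 lower in day 3 blood than endothelium. Without the filter 6 fell from day 2 to day 3 blood, and with the line as replicate block 4, where 10 did without it; the block moved no other count by over 1.5 times. ES-derived lines alone gave 22 lower in endothelium than eHB, 29 higher and 0 lower in day 2 blood than eHB, 0 and 0 between the blood days, and 10 higher and 0 lower in day 3 blood than endothelium. Tissue-derived lines alone gave 30 higher in day 2 blood than eHB, 1 higher and 0 lower between the blood days, and 2 lower in day 3 blood than endothelium. These subsets hold fewer samples. Without day 2 blood of M5 and FL4, an alternative chosen after seeing the data, day 2 blood against eHB gave 40 and 3 and day 3 against day 2 blood 1 and 0.

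Leaving out each library in turn gave, higher and lower: mesoderm against ES cells 58 to 68 and 3 to 5, eHB against mesoderm 1 to 2 and 14 to 38, endothelium against eHB 3 to 4 and 44 to 50, day 2 blood against eHB 51 to 62 and 1 to 2, day 3 against day 2 blood 1 to 2 and 0 to 22, day 3 blood against endothelium 45 to 53 and 1 to 2, cultured against embryo endothelium 0 to 3 and 3 to 30, yolk sac against embryo 0 to 1 and 0 to 20, and HSC against day 3 blood 3 to 3 and 2 to 4.

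Signs turned with the scaling for single genes. On TPM these were Atp5a1 (−0.20), Ndufb5 (−0.00047) and Sdha (−0.13) in mesoderm against ES cells, and Ndufv1 (0.32) and Sdha (0.083) in eHB against mesoderm. In day 2 blood against eHB they were Atp5a1 −0.33, Atp5b −0.25, Atp5f1 −0.23, Atp5g3 −0.12, Atp5j −0.39, Cox5a −0.37, Cox7b −0.19, Cox8a −0.080, Idh3g −0.13, Mdh2 −0.13, Ndufa4 −0.35, Ndufa9 −0.33, Ndufb5 −0.17, Ndufv1 −0.63, Sdha −0.27, Sdhb −0.49 and Slc25a3 −0.0042. In day 3 blood against endothelium they were Atp5b −0.32, Cox6b1 −0.054, Ndufv1 −0.0099 and Uqcrc1 −0.024. With library totals, Atp5a1 (−0.055), Cox5a (−0.089) and Ndufa9 (−0.042) turned in day 2 blood against eHB. The members' distance from the median gene kept its sign in all 8 comparisons under TMM, library totals and TPM. Depth limits most the day 3 blood library of RB3.6.5, with 9424412 counts.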
